A study of Rattus norvegicus with 2 samples.

Results

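Cyclic GMP (cGMP) signalling was examined in rat bone mesenchymal stem cells (BMSCs), cells of the marrow stroma that can form bone, through 9 genes named in advance: the phosphodiesterase gene Pde5a, the kinase genes Prkg1 and Prkg2, the soluble guanylyl cyclase genes Gucy1a1 and Gucy1b1, the natriuretic peptide receptor genes Npr1, Npr2 and Npr3, and the nitric oxide synthase gene Nos3. The array carries the cyclase genes under their older symbols Gucy1a3 and Gucy1b3. All 9 genes were found, out of 24210 genes on the array, and they were measured by 10 sequences, since Prkg1 has 2. No measured value entered the rule of choice, but earlier results of these data were known when it was made. Both conditions were BMSCs of early passage from 4-week-old Sprague-Dawley rats, 1 treated with DMSO as solvent control and 1 with 20 μM icariin, a flavonol glycoside of Epimedium, for 24 h. The donor sex is female in the labels and male in the methods, and how many animals were pooled is not given in the sources used here. Each condition was measured on 1 single-colour NimbleGen array, so the differences have no replicate check and were not tested. Values are given in the order DMSO, icariin, and "higher" or "lower" refers to icariin relative to DMSO.

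cGMP is a second messenger made from GTP by guanylyl cyclases. The soluble cyclase, a dimer of an alpha and a beta subunit, is switched on by nitric oxide, while the membrane cyclases Npr1 and Npr2 are themselves receptors for natriuretic peptides. The messenger acts through cGMP-dependent protein kinases and gated ion channels, and phosphodiesterases remove it. In the skeleton, C-type natriuretic peptide, its receptor Npr2 and the kinase Prkg2 are known for their part in the growth of long bones. Icariin is known as an inhibitor of the PDE5 enzyme, an action on the protein, whereas the arrays read RNA.

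The upstream sequences of 3 members are shown because these genes carry the account: Pde5a as the gene of the known icariin target, and Npr1 and Gucy1b1 as the members above background with DMSO alone. Each run holds the 250 bases before the RefSeq gene start on the GRCr8 assembly, 5′ to 3′ on the gene's strand. Capitals mark the GC box (GGGCGG) and the CCAAT box (CCAAT) on either strand.
Pde5a, chr2:213543776-213544025 (+ strand): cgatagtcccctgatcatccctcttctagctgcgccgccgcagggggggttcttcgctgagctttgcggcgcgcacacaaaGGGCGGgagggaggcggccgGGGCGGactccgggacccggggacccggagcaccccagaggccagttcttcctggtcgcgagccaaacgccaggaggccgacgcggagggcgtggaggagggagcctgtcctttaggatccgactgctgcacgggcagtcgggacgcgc
Npr1, chr2:178247089-178247338 (- strand): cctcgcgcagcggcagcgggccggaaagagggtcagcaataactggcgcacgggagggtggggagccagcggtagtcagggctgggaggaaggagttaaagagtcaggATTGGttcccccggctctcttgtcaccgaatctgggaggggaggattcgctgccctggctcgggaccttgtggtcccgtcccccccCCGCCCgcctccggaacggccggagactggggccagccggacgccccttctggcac
Gucy1b1, chr2:169696988-169697237 (- strand): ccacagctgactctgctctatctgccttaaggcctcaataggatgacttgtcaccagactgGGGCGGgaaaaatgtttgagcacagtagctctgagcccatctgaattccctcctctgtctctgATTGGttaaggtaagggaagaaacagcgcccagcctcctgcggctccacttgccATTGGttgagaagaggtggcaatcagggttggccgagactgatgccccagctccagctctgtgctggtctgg
The Pde5a stretch held 2 GC boxes and no CCAAT box, that of Npr1 held 1 of each, and that of Gucy1b1 held 1 GC box and 2 CCAAT boxes. A GC box was present in 30.5% and a CCAAT box in 34% of 33469 promoter stretches of the same length, and no GC box match in these stretches overlapped a CCAAT box match. Neither a cAMP response element (TGACGTCA, in 1.59% of all stretches) nor a TATA box (TATAAA, in 12.9%) was found in any of the 3. Of the other members with a matched promoter, Gucy1a1 and Nos3 held 1 GC box each, and Npr3 and Prkg1 held none. The GC content was 70.4% for Pde5a, 68.8% for Npr1 and 54.8% for Gucy1b1, beside a median of 51.2% over all promoters. The matches are a description of letters, and the arrays do not read binding.

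Levels were read against genes that BMSCs are taken not to use. The 95th percentile of 1488 olfactory and vomeronasal receptor genes was 147 with DMSO and 168 with icariin, in normalised intensity, and is called the receptor level. Their 99th percentile was 215 and 265, and probes of random sequence read 73.8 and 78.4. Where the dimmer array was not above the receptor level, a ratio is given as "at least", with the dimmer value raised to 168. This is a convention rather than a sure bound, because some receptor genes lie above it. Of 10 markers of marrow stroma, the labelled cell type, 9 were above the receptor level on both arrays. Col1a1, the main collagen of bone, read 33820 and 39096. The exception was Lepr, the leptin receptor of marrow stroma, at 84.7 and 78.3. Markers of macrophages were above this level as often, 9 of 10 with both treatments and the other with icariin alone, and 7 of the 10 were at least 2-fold higher and none 2-fold lower. Their summed intensity was 5876 and 18290, and the part of such cells in the members' values was not tested.

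Of the 9 members, 1 had at least 2-fold lower intensity with icariin, none had at least 2-fold higher intensity and 8 differed by less. The corresponding shares over all genes were 7.01% lower, 6.51% higher and 13.5% in either direction, so the member count lies near the background. Only Npr2 exceeded the receptor level on both arrays, Npr1 and Gucy1b1 exceeded it with DMSO alone, and the other 6 on neither array. The shares of all genes in these classes were 38.5%, 9.97% and 45.9%. A 2-fold difference in either direction was seen in 7.44%, 40.2% and 7.7% of the genes of these classes, and Npr1, the member that passed 2-fold, belongs to the class with 40.2%. The members had a median log2 difference of -0.41, with 7 below and 2 above 0, beside a median of -0.02 and a share of 51.4% below 0 over all genes. Raising every value to the receptor level brought the median of the 9 members to 0.00. That outcome was fixed by the 6 members not above it on either array, so it says nothing on the direction of the others.

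**Figure D1:**
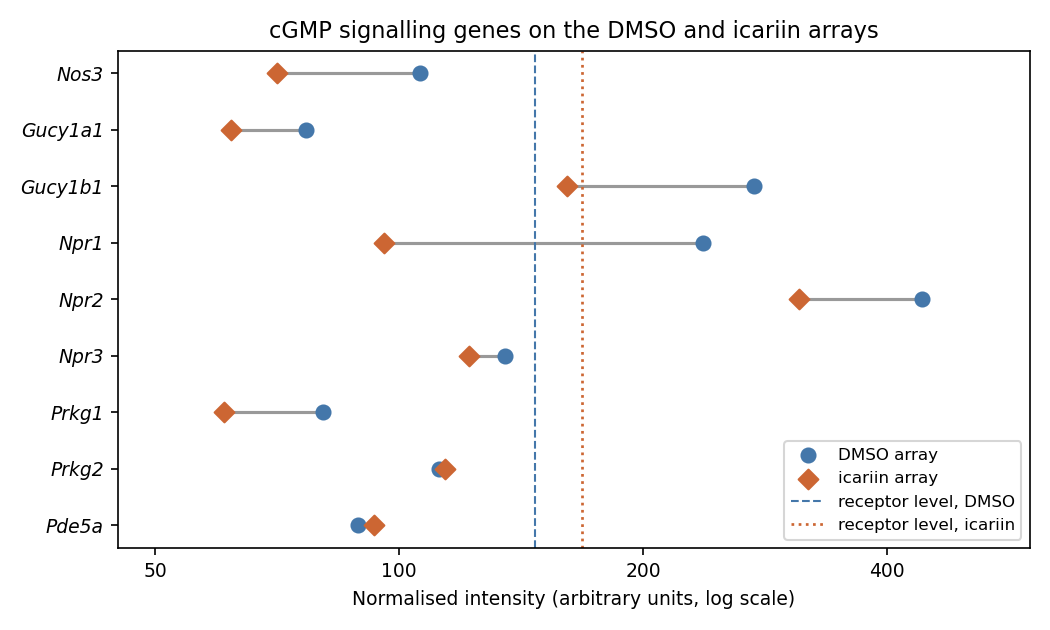
Normalised intensity (log scale) of the 9 members on the DMSO array (circles) and the icariin array (diamonds), 1 array each, with the receptor level of each array as a vertical line. Npr1 spans from 237 to 95.7 across both lines, Npr2 lies to the right of both lines on both arrays, and 6 members, Pde5a among them, lie to the left of both.

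Pde5a, the gene of the cGMP-specific phosphodiesterase that icariin is known to inhibit, was not measured above background. It read 88.9 with DMSO and 93.0 with icariin, a log2 difference of 0.06. Both values were below the receptor level of their array, so the RNA of this gene was not measured above that background in either condition and no ratio can be read from it. The value table of the series does not list the Pde5a sequence.

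The receptors of natriuretic peptides include the member that passed 2-fold. Npr1, the membrane cyclase that binds atrial and B-type natriuretic peptide, read 237 with DMSO and 95.7 with icariin. Its log2 difference was -1.31, and because the icariin value was not above the receptor level, it was at least 1.41-fold lower. With both values raised to the receptor level the log2 difference was -0.50, smaller than that of Gucy1b1 (-0.71), and with the 99th percentile of receptor genes as the floor it was 0.00. In all, 3.38% of genes had a log2 difference further below 0 than Npr1. Among the 2421 genes of its intensity decile, 11.1% were at least 2-fold lower and 5.87% lay further below 0 than Npr1. Fewer cells that carry a transcript and less of it per cell cannot be told apart in these samples.

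Npr2, the membrane cyclase that binds C-type natriuretic peptide, went from 442 to 311. It was the member measured on both arrays, and it was 1.42-fold lower (log2 difference -0.51), short of 2-fold. Npr3, the clearance receptor, which takes up natriuretic peptides and has no cyclase of its own, read 135 and 122 and was above the receptor level on neither array. The 3 receptor genes thus all had lower values with icariin, with log2 differences from -0.15 to -1.31, but only Npr2 gave a ratio between measured values.

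Among the soluble cyclase genes, Gucy1b1, which encodes the beta subunit that holds the haem group, read 274 with DMSO and 161 with icariin. The log2 difference was -0.77, and the gene was at least 1.63-fold lower. With the 99th percentile of receptor genes as the floor, that difference shrank to -0.04. Gucy1a1, which encodes the alpha partner subunit, read 76.8 and 62.0 and was above the receptor level on neither array. Both genes lie on chromosome 2, with 0 annotated protein-coding genes between them. The remaining subunit genes, Gucy1a2 and Gucy1b2, stayed below the receptor level on both, at 101 and 76.3 and at 110.4 and 77.2. All 4 subunit genes had lower values on the icariin array, with a median of -0.46, but Gucy1b1 alone had a value above the receptor level.

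Nos3, the endothelial nitric oxide synthase, read 106 and 70.7, a log2 difference of -0.58 between values that were both below the receptor level. The inducible synthase Nos2 was the synthase gene that the arrays measured, at 978 and 838, a difference of -0.22. The neuronal synthase Nos1 read 99.5 and 98.2. Markers of endothelium, the cell type known for Nos3, were examined beside it. Of 8 such genes, 1 was higher and 1 lower by at least 2-fold, 2 exceeded the receptor level on neither array, and the summed intensity of the list was 1701 and 1626. Pecam1, an adhesion molecule of endothelium, read 269 and 52.8, and Tie1, a receptor kinase of endothelium, read 138 and 319. Over all genes 13.5% differed 2-fold. The part of such cells in the Nos3 values was not tested.

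The kinase genes were dim. Prkg2, the membrane-bound cGMP-dependent kinase known from growth plate cartilage, read 112 and 114. Prkg1, the kinase of smooth muscle and platelets, averaged 80.6 and 60.7 over its sequences, a log2 difference of -0.41. Its sequences disagreed, since the one annotated as isoform 1 read 132 and 62.5 (-1.08) and the other 49.1 and 58.9 (0.26). Their differences were 1.35 apart on the log2 scale, more than the median gap of 0.57 among 832 genes with 2 sequences that were above the receptor level on neither array. The value table of the series lists only the first of them, so with that table Prkg1 counted as at least 2-fold lower, from a value of 132 that lies below the receptor level. Markers of smooth muscle, a cell type known for Prkg1 and Pde5a, were set beside these values. Acta2 and Tagln, an actin and an actin-binding protein of contractile cells that cultured stroma also makes, read 17867 and 21420, and 28505 and 29002. Myh11, the smooth muscle myosin, was above the receptor level on neither array (107 and 66.8). Of the 6 markers in that list, none differed 2-fold and 2 were above the receptor level on neither array. The log2 difference was below 0 for 4 of them and above 0 for 2, with a median of -0.46. Smtn, the marker with the largest difference, read 313 and 161 (-0.96). The summed intensity, most of it from Acta2 and Tagln, was 47950 and 51532. Of 5 platelet markers 4 were measured, of which 3 were above the receptor level on neither array. Of these 3, Gp9 was at least 2-fold higher (58.7 and 132), beside 6.51% of all genes, and Ppbp read 76.4 and 48.9. No platelet marker was 2-fold lower. The summed intensity of the 4 was 569 and 814, most of it from Pf4 (311 and 481), the marker above that level. The part of either cell type in the values of Prkg1 and Pde5a was not tested.

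**Figure D2:**
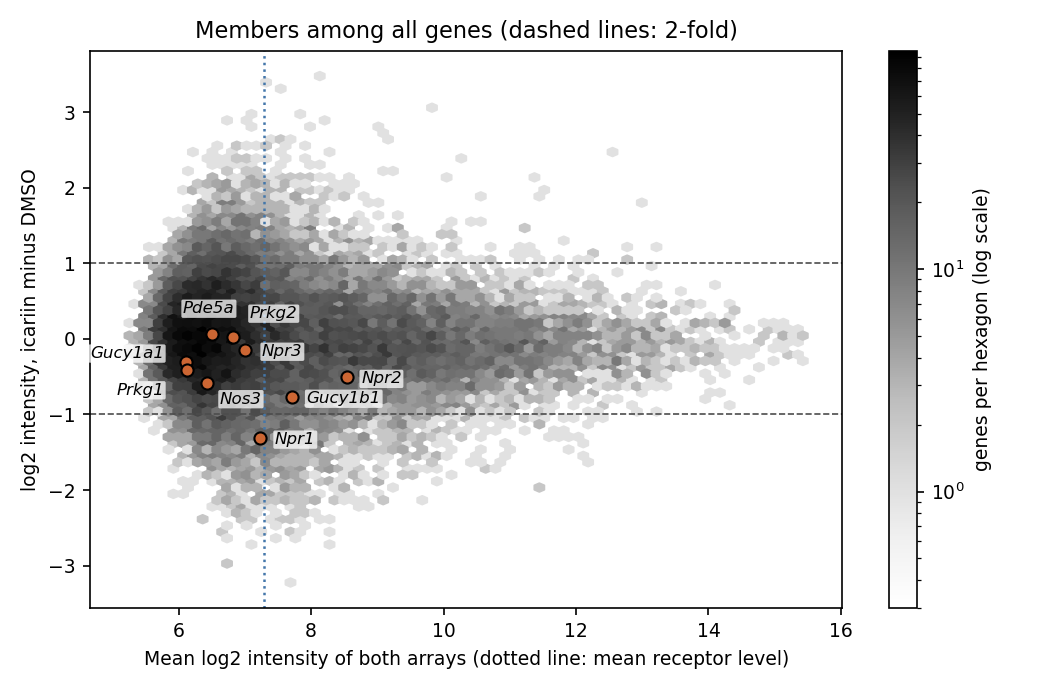
Log2 difference (icariin minus DMSO) against the mean log2 intensity of both arrays for all 24210 genes, shaded by the number of genes, with the 9 members as points. Npr1 alone lies beyond the 2-fold line, at -1.31, and the other 8 members lie between the dashed lines, most of them left of the receptor level, where the cloud is densest.

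To set the members in their pathway, 84 genes in 9 lists by role were counted, the members among them. A 2-fold difference was reached by 6 genes that were lower and 3 that were higher, and 75 differed by less, so that 10.7% differed 2-fold, beside 13.5% of all genes. None of the 3 higher genes reached the receptor level, which 4.28% of all genes did while being at least 2-fold higher. They were Nppc, which encodes C-type natriuretic peptide (66.2 and 145), Guca2b, the uroguanylin gene (47.2 and 106), and Gucy2d (51.0 and 111). All 6 lower genes were above it with DMSO: Pde6d, Pde11a, Ddah2, Trpc6, Npr1 and Gucy2e. Of all genes, 5.71% were at least 2-fold lower and above this level with DMSO. The median of the 84 genes was -0.15.

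**Figure D3:**
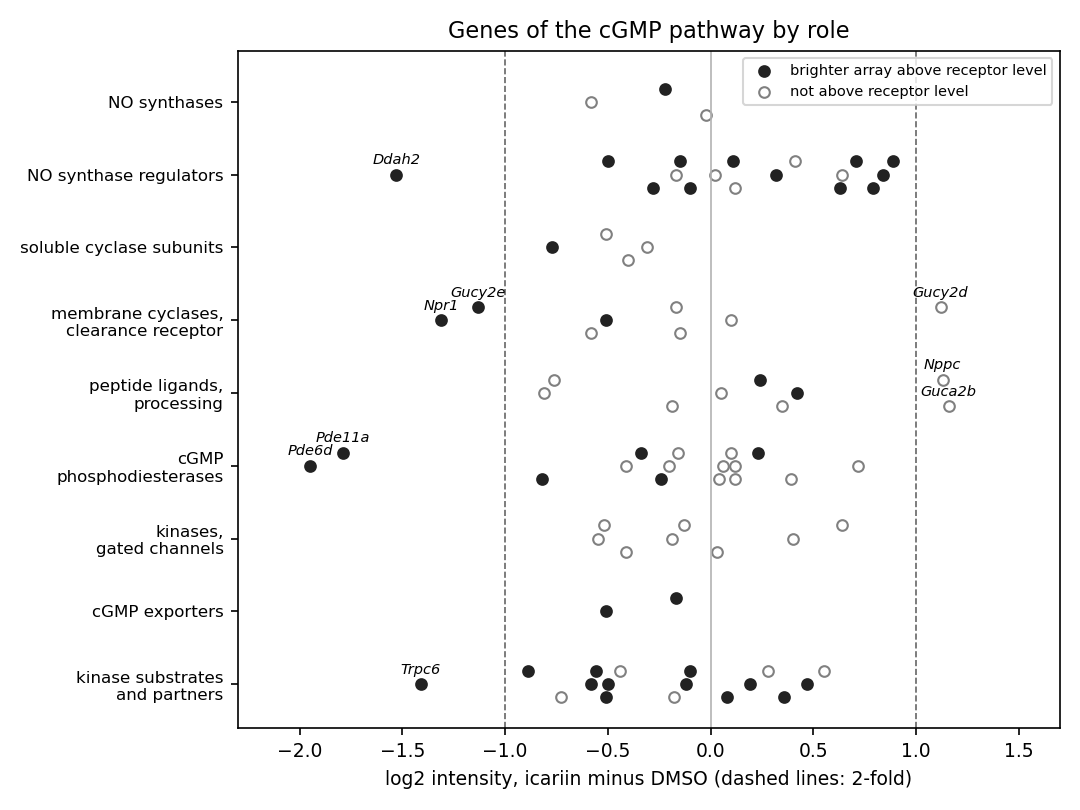
Log2 difference (icariin minus DMSO) of the pathway genes, 1 point per gene and 1 row per role, filled where the brighter array was above the receptor level. Of the points beyond the dashed 2-fold lines, the 6 on the left are filled and the 3 on the right are open, and Pde6d lies farthest left at -1.95.

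The list of phosphodiesterase genes held 16 genes, of which none was at least 2-fold higher, 2 were at least 2-fold lower and 14 neither, with a median of -0.06. Pde6d, named for a retinal phosphodiesterase but better known as a carrier of prenylated proteins, read 691 and 179, both above the receptor level, and was 3.87-fold lower. The icariin value was only just above that level, and with the 99th percentile as the floor its log2 difference of -1.95 became -1.38. Of the genes of its intensity decile, 8.05% were at least 2-fold lower. Pde11a, a phosphodiesterase of both cAMP and cGMP, read 167 and 48.2, but 167 is below the floor of 168 and no bound is given. In its decile 5.99% of genes were at least 2-fold lower. Pde1b, an enzyme of both cAMP and cGMP, read 187 and 219, and Pde6a, a catalytic subunit of rods, 229.8 and 182. Pde6h, an inhibitory subunit of cones, read 182 and 154, and Pde3b, an enzyme that cGMP inhibits, 123 and 132. Pde2a, an enzyme that cGMP stimulates, named after its values were seen, read 147 and 83.5. In all, 10 genes of the list, Pde3b and Pde5a included, were above the receptor level on neither array.

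Ligands and the remaining membrane cyclases were mostly dim. Of 9 genes for peptide ligands and their processing, 7 were above the receptor level on neither array, beside 45.9% of all genes. The natriuretic peptide genes Nppa (97.7 and 57.6) and Nppb (107 and 61.1) were among these 7, as was Nppc. Furin, a protease that cleaves pro-peptides, read 2467 and 2911, and Mme, the neprilysin gene, whose product degrades natriuretic peptides, 575 and 767. Of 8 genes for membrane cyclases and the clearance receptor, 1 was at least 2-fold higher and 2 were at least 2-fold lower. The shares over all genes were 6.51% higher and 7.01% lower. Gucy2e read 203 and 92.9 and was at least 1.21-fold lower, but 203 is below the 99th percentile of receptor genes, and the gene no longer passed 2-fold with either floor or with 64 added to both values. The symbols of this gene and of Gucy2d are exchanged between the array annotation and RefSeq, and the RefSeq use is followed here. None of the 8 genes for cGMP-dependent kinases and cGMP-gated channels differed 2-fold or reached the receptor level, among them the channel subunit gene Cnga3 with 94.7 and 147. The exporters of cyclic nucleotides were measured on both arrays, Abcc4 at 243 and 171 and Abcc5 at 577 and 512, and neither differed 2-fold.

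Regulators of nitric oxide synthases went both ways. Of 17 genes, none was at least 2-fold higher, 1 was at least 2-fold lower and 16 were neither, with a median of 0.12. Ddah2 is named for the breakdown of methylated arginines that block nitric oxide synthases, an activity that was not examined here. It read 1551 and 535 and was 2.90-fold lower, with both values above the receptor level. In its decile 5.58% of genes were at least 2-fold lower. Ddah1, a relative of Ddah2 named after its values were seen, read 1215 and 1519. Of the genes named for their level, Dynll1, a dynein light chain that binds the neuronal synthase, read 10729 and 11595. Cav1, the caveolin that holds the endothelial synthase in check, read 3070 and 2871, and Hsp90aa1, a chaperone partner of that synthase, 2096 and 1883.

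Enzymes of arginine supply and of the synthase cofactor tetrahydrobiopterin, belong to the same list, and those given here were named after their values were seen. None passed 2-fold. Ass1, Arg1, Spr and Gch1 had higher values with icariin, and Asl and Arg2 had lower values, with smaller differences. Pts (83.5 and 129.7) and Gchfr (49.1 and 65.4), also linked to the cofactor, were higher too, but above the receptor level on neither array. Ass1, Arg1, Spr, Gch1 and Pts were among the 23 of 84 pathway genes that passed 1.5-fold, beside 8276 of 24210 genes. Ass1, which makes arginine precursor from citrulline, read 366 and 680.4, and Asl, which acts next, 441 and 362. Arg1, an arginase that competes for arginine, read 855 and 1534, and its relative Arg2 116 and 104, below the receptor level. Spr, which completes the cofactor, read 747 and 1153, while Gch1, which opens its synthesis, read 110.2 and 190.3 and was above the receptor level on the icariin array alone. Arg1 and Nos2 are also known from macrophages, whose summed marker intensity is given above. The part of such cells in the values of Arg1, Nos2 and the other pathway genes was not tested.

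Of 17 genes for substrates and partners of the cGMP-dependent kinases, none was at least 2-fold higher, 1 was at least 2-fold lower and 16 were neither, with a median of -0.18. Trpc6, a cation channel that the kinase restrains, read 197 and 74.1 and was at least 1.17-fold lower, beside 9.62% of genes of its decile that were at least 2-fold lower. Its value of 197 is below the 99th percentile of receptor genes, and it too no longer passed 2-fold with either floor or with 64 added. The genes named for their level were Rhoa, a small GTPase (8380 and 8863), Vasp, an actin regulator whose phosphorylation is used as a read-out of kinase activity (3559 and 3268), Hspb6, a small heat shock protein (1324 and 933), and Gsk3b, a kinase that Prkg2 phosphorylates in chondrocytes (800.4 and 746). Sox9, the cartilage factor that Prkg2 is known to restrain, named after its values were seen, read 323 and 227. The arrays measure RNA, so phosphorylation and the cGMP level itself were not read.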

How the data were processed

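RNA of BMSCs treated with DMSO or icariin, 1 sample each, was labelled with Cy3 and hybridised to Rat 12 × 135K arrays of NimbleGen. Per the study's methods, the authors applied quantile normalization and the RMA algorithm of NimbleScan, and the deposited intensity values are on a linear scale with 1 value per sequence (5 probes for 99.8% of the 26419 sequences). The background step is not given in the sources used here. Quantile normalization forces a common distribution, so a shift of all transcripts would not be seen. The standard error deposited per sequence has no stated scale and was not used. With 1 array per condition, their number limits the precision and no interval was made.

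Gene names came from the GRCr8 table of RefSeq, used for names and neighbours only (20681 by gene identifier, 31 by transcript accession, 5707 kept the file's symbol), and log2 values were averaged over the sequences of a gene with pandas 2.3.3 under Python 3.11.15. Differences are icariin minus DMSO, and 2-fold was the threshold, since the methods name fold change filtering without a fold. Naming, averaging and counting were tested on simulated data. RefSeq promoters were matched for 7 members (Npr2 and Prkg2 were not matched). All 9 members were named, as were, from each pathway list, genes that passed 2-fold above the receptor level and up to 4 of the highest level; any other gene is given as part of its group or said to be chosen later. A gene that the rule names is not reported here. Members, lists and alternatives were chosen with earlier results of these data known, and after the data were read Gucy2e was added to its list as a gene of its own. Alternatives comprised the series value table, loess on level (span 0.3, statsmodels), centring, the brightest sequence of a gene, 64 added, floors at both percentiles, folds of 1.5 and 3, and the symbols of the files alone. A filter on the receptor level was added after seeing the data.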

Additional observations from a re-analysis of the deposited data

How the results depend on the processing

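The fold, the floor and the choice of Prkg1 sequence changed counts. With the series value table, which lists 7 of the 9 members, 2 differed at least 2-fold, beside 3280 of 18613 genes. With the brightest sequence of each gene, 2 of the 9 members did, beside 3452 of 24210 genes. These were Npr1 and Prkg1 in both settings. At 1.5-fold, 2 of the 9 passed (Npr1 and Gucy1b1). The member count was 0 with 64 added to both values, with values raised to the receptor level, with values raised to its 99th percentile, and at 3-fold. Npr1 itself read -0.92 with 64 added, -0.50 at the first floor and 0.00 at the second. Of the pathway genes, 3 remained past 2-fold with 64 added (Ddah2, Pde6d and Pde11a), 2 with either floor (Ddah2 and Pde6d), 2 passed 3-fold (Pde6d and Pde11a), and 23 passed 1.5-fold. Over all genes, 1228, 954, 513, 749 and 8276 passed with 64 added, with the lower floor, with the higher floor, at 3-fold and at 1.5-fold, against 3274. Under loess, centring and the symbols of the files alone, each of these counts stayed within 1.5 times its value in the report. The filter on the receptor level of the brighter array kept 3 members, 39 pathway genes and 13048 genes in all. Of these, 1, 6 and 2419 passed 2-fold. The 6 pathway genes were all lower, because the 3 higher genes were not above that level and the filter removed them. No member turned from lower to higher by 2-fold under any alternative. All alternatives re-use the same arrays with limited changes, so this is no check of the direction of a member. Npr2 ranged from -0.51 to -0.43 over all alternatives. Pde5a, which has no value with the series value table or the filter on the receptor level, ranged from 0.00, where both its values were raised to a floor, to 0.11 in the others. No paired analysis was possible because each condition has 1 array. No array could be left out for the same reason.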
